A study of Mus musculus with 58 samples.

Results

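Total RNA was compared between mouse embryonic stem (ES) cells sampled after 8 h of RBBP5 degradation and the same line at 0 h. The comparison used the 3 RBBP5–FKBP libraries of 8 h and the 3 of 0 h, which are 6 of the 58 libraries in the series, and every read of each library was counted, whether or not it carried the mark of recent synthesis. These members were chosen by the cell line and time point in the labels, with earlier results of these data known. All 6 libraries came from E14 ES cells of the 129/Ola background, grown on gelatin with serum and leukaemia inhibitory factor (LIF). In this line both copies of Rbbp5 end in FKBP12(F36V), a tag that the ligand dTAG-13 links to a ubiquitin ligase. The line grew from 1 sorted clone. The 0 h cells carried the same tag, and cells of the parental line given dTAG-13 were not analysed here, so effects of the ligand and of RBBP5 loss cannot be told apart. Cells of all 6 libraries received 4-thiouridine (4SU), a uridine analogue that is later read as a T>C mismatch, before RNA isolation. RNA was sequenced from its 3′ ends. Further libraries of the line at 2 h and 24 h, and those of DPY30–mAID cells, in which auxin removes another subunit of the same complexes, served for comparison.

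RBBP5 and DPY30 belong to the shared core, with WDR5 and ASH2L, of the SET1/COMPASS complexes that methylate lysine 4 of histone H3 (H3K4). The trimethylated form, H3K4me3, marks the promoters of active genes, and it is removed by KDM5 demethylases. The amount of a gene's total RNA depends on both its synthesis and its decay, so long-lived mRNAs follow a change of synthesis with delay.

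The tag was placed at the end of the Rbbp5 reading frame with a Cas9 guide across the stop codon, shown here because it defines the allele that all 6 libraries carry (capitals mark the stop codon, bases 12 to 14 of the 20).
Rbbp5 guide: cagaactgctgTGAagaccg
The guide matches the plus strand of GRCm38 at chr1:132503779-132503798, in exon 15 of 15 of transcript ENSMUST00000027700.14, and the next 3 bases of the transcript are TGG. Rbbp5 mRNA (ENSMUSG00000026439, chromosome 1 from 132477365 to 132505659, plus strand) measured 45.3, 50.2 and 76.7 CPM at 0 h and 52.7, 32.8 and 37.1 CPM at 8 h, in the order of replicates 1 to 3 that is kept throughout. CPM are read counts scaled to library size with edgeR's TMM factors. The groups overlapped (log2 fold change −0.49, SE 0.26, edgeR adjusted p = 0.253). dTAG-13 acts on the protein, so the mRNA is no check of depletion.

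Between 2165418 and 2852331 reads were counted per 0 h library and between 1736015 and 2128405 per 8 h library, and 23.0% to 24.4% of them mapped to more than 1 place (multimapping reads). The libraries kept an ES cell profile. Of 10 ES cell markers, Esrrb alone passed the test between 8 h and 0 h, with 381, 362 and 355 CPM at 0 h and 562, 489.9 and 498 CPM at 8 h (log2 fold change 0.50, edgeR adjusted p = 0.0104). Pou5f1, the core pluripotency factor OCT4, had a mean of 726 CPM at 0 h and 919 CPM at 8 h (edgeR adjusted p = 0.157), although 97.9% of its reads were multimapping. Sox2 had 1152 and 1132 CPM. Fibroblast and 2-cell-like markers had few reads, and both sums were higher at 8 h. Summed CPM of 9 fibroblast markers lay between 0.712 and 3.71 at 0 h and between 4.53 and 10.8 at 8 h, with 3 of the 9 at 0 in all 6 libraries. Genes of the 2-cell-like state had 0 CPM in each 0 h library and 5.43 to 14.1 CPM at 8 h over 14 genes, 8 of them at 0 in all 6. None of these genes passed the filter, and 1 of the 2-cell-like genes was called as higher with no filter on low counts and without 8 h replicate 2. Summed neural markers lay above their 0 h range, with 138 to 156 CPM at 0 h and 218 to 269 CPM at 8 h over 11 genes, of which 2 were at 0 in all 6. Ncam1, a neural adhesion molecule, had 66.5, 72.3 and 66.7 CPM at 0 h and 98.5, 123 and 155 CPM at 8 h (log2 fold change 0.88, SE 0.19, edgeR adjusted p = 0.0046). Of the 6 neural markers tested, 3 were lower and 3 higher. Map2 (1.5) was the other that rose, beside 4.21% of all tested genes. Leaving out 1 library gave 1 to 2 (1 without 0 h replicate 1, 0 h replicate 2, 8 h replicate 1 or 8 h replicate 3) neural genes that rose. Primitive endoderm markers summed to 589 to 682 CPM at 0 h and 602 to 765 CPM at 8 h. Lama1, a basement membrane laminin, rose (1.18) and Lamb1 fell (−0.61), of 5 tested, and Lamb1 lost its call in the fit to the 6 libraries, without T>C reads, at equal depth and without 0 h replicate 1, 0 h replicate 3, 8 h replicate 1 or 8 h replicate 3. Trophectoderm markers (115 to 156 and 107 to 122 CPM) and germline genes (121 to 129 and 97.3 to 146 CPM) overlapped between the groups in their sums. The 6 tested trophectoderm and simple epithelial markers had a median log2 fold change of −1.37, with 5 lower, 4 of them with every 8 h library below every 0 h library. Such separation downwards occurred for 12.8% of all tested genes. In bulk RNA, fewer cells of a type and less RNA per cell cannot be told apart, and the part of these marker genes in the results that follow was not tested.

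After 8 h of dTAG-13, 481 genes fell and 407 rose among 9676 tested, which is 4.97% and 4.21% (quasi-likelihood test of edgeR, Benjamini-Hochberg adjusted over all tested genes, adjusted p under 0.05). Genes were tested where at least 1 of the 4 time points had a mean of at least 10 reads, and all 12 RBBP5–FKBP libraries shared 1 estimate of the spread. A log2 fold change beyond 1 was reached by 199 of the genes that fell (2.06% of those tested) and 220 of those that rose (2.27%). The genes that fell had a median log2 fold change of −0.89 (quartiles −1.29 and −0.63), and those that rose had 1.06 (quartiles 0.78 and 1.55), beside 0.01 over all tested genes. Every 8 h library was under every 0 h library for 459 of the 481 genes that fell, and over it for 387 of the 407 that rose. Over all tested genes such separation occurred for 12.8% downwards and 13.5% upwards, whether or not a gene passed the test. No spike-in entered these counts, so the values are relative and a change shared by all genes is not visible. A fit to the 6 libraries alone called 189 genes down and 118 up. Leaving out replicate 1 of 8 h left 243 and 178, and leaving out replicate 3 of 0 h left 275 and 213.

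**Figure D1:**
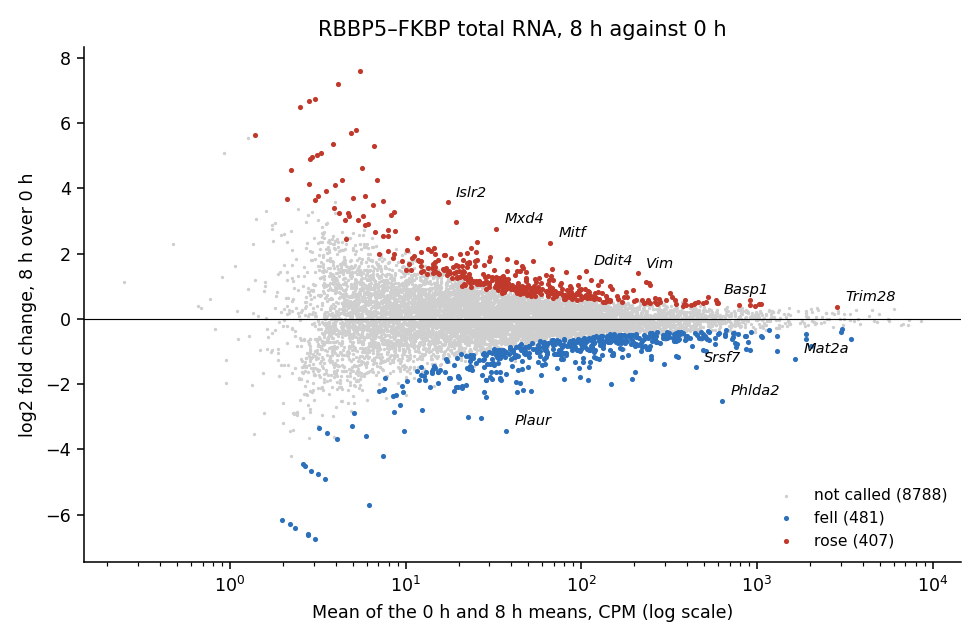
Each point is 1 of the 9676 tested genes, with the mean of its 0 h and 8 h CPM on a log x axis and its log2 fold change (8 h over 0 h) on the y axis. Blue points are the 481 genes that fell and red points the 407 that rose. Phlda2 and Mat2a stand out among abundant genes that fell, whereas most red points at the far left are genes of few reads.

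Genes that fell had a median of 118 CPM at 0 h and 63.0 CPM at 8 h, and genes that rose had 26.2 and 56.7 CPM. The medians were thus far apart at 0 h, the baseline of the fold change, and close at 8 h. In 4 groups of tested genes from lowest to highest 0 h level, 0.661%, 1.69%, 5.46% and 12.1% fell. The shares that rose were 4.59%, 4.42%, 4.75% and 3.06%. Later list counts are set against all tested genes and not against genes of like level. A mean below 50 reads in both groups held for 88 of the genes that rose and 35 of those that fell. In each direction 6 genes had 0 reads in all 3 libraries of the lower group, and no fold is given for them.

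Among called genes with at least 50 reads in the higher group, under 20% multimapping reads and no overlap of the groups, the 10 largest decreases spanned log2 fold changes of −3.45 to −2.21. Plaur (ENSMUSG00000046223, chromosome 7 from 24462484 to 24475968, plus strand), the urokinase receptor, measured 82.0, 54.1 and 70.0 CPM at 0 h and 7.93, 3.96 and 6.79 CPM at 8 h. All 8 h libraries lay far below the lowest 0 h library (log2 fold change −3.45, SE 0.35, edgeR adjusted p = 6.98e-07). Arc, an activity-regulated immediate early gene, measured 40.5, 62.0 and 41.9 CPM at 0 h and 5.66, 4.53 and 7.24 CPM at 8 h (log2 fold change −3.03, SE 0.41, edgeR adjusted p = 3.92e-05). The groups stood far apart here too. Fry, which encodes a microtubule-associated protein, measured 45.7, 36.0 and 39.7 CPM at 0 h and 1.7, 2.26 and 10.4 CPM at 8 h, and 8 h replicate 3 was the highest of its group (log2 fold change −3.00, SE 0.48, edgeR adjusted p = 0.000231). Ap1m2, the medium subunit of the epithelial AP-1B clathrin adaptor, measured 25.9, 16.0 and 23.0 CPM at 0 h and 2.83, 6.22 and 0.453 CPM at 8 h (log2 fold change −2.80, SE 0.51, edgeR adjusted p = 0.000998). Its 8 h values were widely spread, and none reached the lowest 0 h value.

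Phlda2 (ENSMUSG00000010760, chromosome 7 from 143501545 to 143503150, minus strand), an imprinted gene that limits placental growth, was the most abundant of the 10. It measured 1013, 1076 and 1162 CPM at 0 h and 207, 174 and 185 CPM at 8 h, a 5.74-fold decrease with little spread in either group (log2 fold change −2.52, SE 0.13, edgeR adjusted p = 6.6e-13). Cldn6, a tight-junction claudin of embryonic epithelia, measured 48.1, 48.1 and 47.8 CPM at 0 h and 9.06, 10.7 and 7.69 CPM at 8 h (log2 fold change −2.39, SE 0.31, edgeR adjusted p = 2.19e-05). Its 0 h libraries were almost equal. Lpl, lipoprotein lipase, measured 37.7, 48.1 and 51.9 CPM at 0 h and 14.7, 6.79 and 7.69 CPM at 8 h (log2 fold change −2.24, SE 0.32, edgeR adjusted p = 8.49e-05). Nab1, a corepressor of EGR transcription factors, measured 80.6, 63.8 and 70.0 CPM at 0 h and 12.5, 11.9 and 20.4 CPM at 8 h (log2 fold change −2.24, SE 0.34, edgeR adjusted p = 0.000142). For both genes the highest 8 h library stayed below the lowest 0 h library. Zfp518a, a zinc-finger protein, measured 79.2, 83.3 and 90.8 CPM at 0 h and 13.6, 26.0 and 15.4 CPM at 8 h (log2 fold change −2.21, SE 0.31, edgeR adjusted p = 6.25e-05). Its groups stood apart as well.

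Under the same conditions, the 5 genes of highest 0 h level that fell included metallothioneins and an enzyme of methyl-donor synthesis. Mat2a (ENSMUSG00000053907, chromosome 6 from 72432799 to 72439558, minus strand), which makes S-adenosylmethionine, the methyl donor of histone methylation, measured 2513, 2157 and 2300.0 CPM at 0 h and 913, 1156 and 885 CPM at 8 h. All 8 h values were well below those of 0 h (log2 fold change −1.24, SE 0.11, edgeR adjusted p = 9.84e-08). Jade1 (ENSMUSG00000025764, chromosome 3 from 41555731 to 41616864, plus strand), a subunit of HBO1 histone acetyltransferase complexes, measured 1597, 1759 and 1859.7 CPM at 0 h and 905, 845 and 877 CPM at 8 h (log2 fold change −0.99, SE 0.10, edgeR adjusted p = 6.98e-07). It was 1.99-fold lower, with close replicates. The metallothioneins Mt2 and Mt1 measured from 2597 ± 165 to 1459 ± 188 CPM and from 2307 ± 235 to 1488 ± 268 CPM (SD, n = 3), decreases of 1.78-fold and 1.55-fold. Igf2bp1, an mRNA-binding protein, measured 2272, 2255 and 2082 CPM at 0 h and 1659.7, 1500.3 and 1609 CPM at 8 h, the smallest change of the 5 (log2 fold change −0.47, SE 0.09, edgeR adjusted p = 0.00262). Its call was lost in the fit to the 6 libraries alone.

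**Figure D2:**
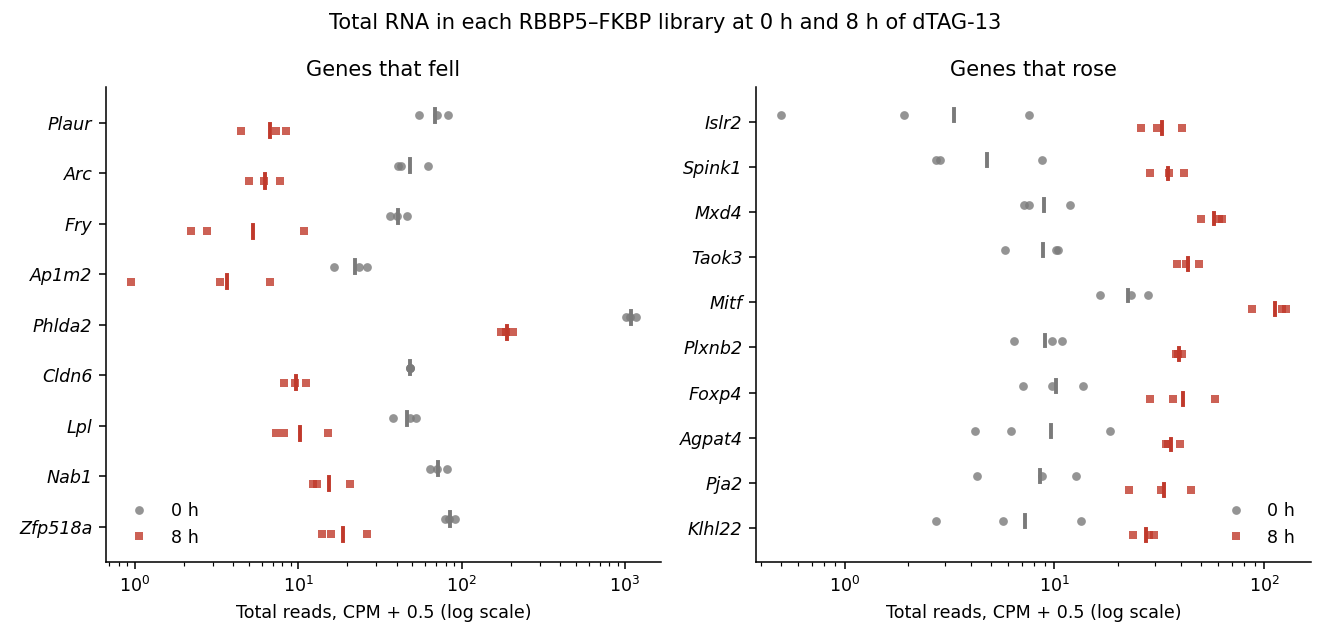
Total reads in CPM + 0.5 (log x axis) in each library for 9 of the 10 genes that fell most and the 10 that rose most, with 0 h libraries as grey circles, 8 h libraries as red squares and group means as short bars. In every gene shown the 3 squares lie on one side of the 3 circles, as the rule for choosing these genes required.

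Under the same conditions the 10 largest increases spanned log2 fold changes of 1.96 to 3.57 and started from fewer than 30 CPM. Islr2 (ENSMUSG00000051243, chromosome 9 from 58196297 to 58204319, minus strand), a leucine-rich repeat membrane protein of neurons, measured 7.07, 1.42 and 0 CPM at 0 h and 25.5, 40.2 and 30.3 CPM at 8 h. All 8 h libraries lay above the highest 0 h library (log2 fold change 3.57, SE 0.72, edgeR adjusted p = 0.00263). Spink1, a trypsin inhibitor, measured 2.36, 8.19 and 2.22 CPM at 0 h and 34.5, 40.7 and 28.1 CPM at 8 h (log2 fold change 2.97, SE 0.45, edgeR adjusted p = 0.000141). Mxd4, a MAX partner that antagonizes MYC, measured 7.07, 11.4 and 6.67 CPM at 0 h and 60.6, 62.2 and 49.3 CPM at 8 h, and the lowest 8 h library was far over the highest 0 h library (log2 fold change 2.75, SE 0.42, edgeR adjusted p = 0.000154). Mitf (ENSMUSG00000035158, chromosome 6 from 97807052 to 98021349, plus strand), the transcription factor of the melanocyte lineage, measured 16.0, 27.4 and 22.6 CPM at 0 h and 86.6, 126 and 121 CPM at 8 h and was the most abundant of the 10 at 8 h (log2 fold change 2.33, SE 0.27, edgeR adjusted p = 6.24e-06). The kinase gene Taok3 measured 9.90, 5.34 and 9.64 CPM at 0 h and 41.9, 48.1 and 38.0 CPM at 8 h (log2 fold change 2.37, SE 0.34, edgeR adjusted p = 8.9e-05). Plxnb2, a semaphorin receptor, measured 10.4, 9.26 and 5.93 CPM at 0 h and 37.4, 40.2 and 38.5 CPM at 8 h, with close 8 h libraries (log2 fold change 2.18, SE 0.34, edgeR adjusted p = 0.000161).

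The other four changed by 1.96 to 2.04 on the log2 scale. They encode the forkhead factor FOXP4 (from 9.68 ± 3.31 to 40.7 ± 15.3 CPM), the acyltransferase AGPAT4 (from 9.11 ± 7.69 to 35.6 ± 3.00 CPM), the ubiquitin ligase PJA2 (from 8.06 ± 4.23 to 32.7 ± 11 CPM) and the ligase adaptor KLHL22 (from 6.74 ± 5.47 to 26.8 ± 3.21 CPM; SD, n = 3). The 5 genes of highest 0 h level that rose under these conditions had small increases. Trim28, the KAP1 corepressor that silences retroelements, measured 2719, 2374 and 2424 CPM at 0 h and 3364, 3515 and 2779.6 CPM at 8 h, a 1.28-fold increase (log2 fold change 0.36, SE 0.10, edgeR adjusted p = 0.0282). Arl6ip1 (1.38-fold), Ing1, which encodes a reader of H3K4me3 (1.40-fold), the proteasome gene Psmd2 (1.40-fold) and Basp1 (1.49-fold) rose as well. Basp1 measured 459.6, 459.8 and 491 CPM at 0 h and 699.9, 717 and 682 CPM at 8 h, with replicates close in both groups (log2 fold change 0.57, SE 0.12, edgeR adjusted p = 0.00276). Of these 5 abundant genes, Basp1 alone kept its call under every alternative setting, and of the 30 genes named for largest change or highest level, 24 did.

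Of 27 tested immediate early genes, which respond within minutes to growth factors, 7 fell and 0 rose (25.9% against 4.97% of all tested genes, median log2 fold change −0.66). Leaving out 1 library gave 4 to 8 genes, fewest without 0 h replicate 2, and the fit to 6 libraries gave 4. Srf, the factor that drives many of them, measured 90.5, 86.2 and 94.9 CPM at 0 h and 50.4, 50.3 and 41.6 CPM at 8 h (log2 fold change −0.93, SE 0.19, edgeR adjusted p = 0.00273). Egr1, a zinc-finger immediate early factor, measured 57.5, 79.4 and 58.9 CPM at 0 h and 27.2, 22.6 and 17.2 CPM at 8 h (log2 fold change −1.55, SE 0.32, edgeR adjusted p = 0.00291). In both genes the groups did not overlap. Jund (−0.89, 43.9% multimapping reads) and the ERK phosphatase gene Dusp5 (−1.78) fell too. Of 21 targets of actin, SRF and YAP signalling, 5 fell and 0 rose (median −0.46), including Tagln2 (−0.56) and Tpm1 (−0.56), which bind actin. Actg1 also fell (−0.63), but 99.7% of its reads were multimapping and its groups overlapped. With 1 library left out the count was 1 to 5 genes, fewest without 8 h replicate 1. It was 1 both in the fit to 6 libraries and without 8 h replicate 1.

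Of 12 Nodal and BMP feedback genes 4 fell and 0 rose, beside 4.97% and 4.21% of all tested genes (6 members lower and 6 higher, median −0.50). Id1, a BMP-induced inhibitor of helix-loop-helix factors, measured 151, 168 and 152 CPM at 0 h and 77.6, 79.8 and 76.0 CPM at 8 h (log2 fold change −1.01, SE 0.16, edgeR adjusted p = 0.000173). Its replicates were close within each group. Lefty2, a secreted Nodal inhibitor, measured 118, 89.0 and 123 CPM at 0 h and 41.3, 58.3 and 42.5 CPM at 8 h (log2 fold change −1.22, SE 0.20, edgeR adjusted p = 0.00038). Skil (−1.04) and Id3 (−1.17) fell as well, and the Id3 groups overlapped. With 1 library left out this list gave 3 to 5 genes, fewest without 0 h replicate 2, 0 h replicate 3, 8 h replicate 1 or 8 h replicate 2. Of 12 FGF and ERK feedback genes 3 fell and 0 rose (median −0.36), namely Phlda1 (−2.17), Spred1 (−1.12) and Dusp4 (−1.25). Of 11 LIF and STAT3 targets Klf5 (−0.52), Pim1 (−0.60) and Lifr (−0.50), a LIF receptor chain, fell and 0 rose, with 6 members lower, 5 higher and a list median of −0.06, and 1 fell in the fit to 6 libraries. No gene passed among 5 Wnt targets.

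Several cholesterol genes were lower at 8 h. Of 24 tested, 8 fell (33.3%) and 2 rose, beside 4.97% and 4.21% of all tested genes, with a median log2 fold change of −0.56, and 8 to 9 fell when 1 library was left out. Msmo1, a sterol demethylation enzyme, measured 280.5, 308 and 289 CPM at 0 h and 138, 151 and 149 CPM at 8 h (log2 fold change −1.0, SE 0.14, edgeR adjusted p = 6.25e-05). Its replicates were close within each group. Insig1, which restrains the SREBP pathway, fell by 1.11 on the log2 scale, and 42.3% of its reads were multimapping. Mvk and Mvd, enzymes of the same pathway, rose (1.35 and 0.78). They were named after their values were seen, and the Mvd groups overlapped. With 1 library left out 1 to 3 (1 without 0 h replicate 2, 0 h replicate 3, 8 h replicate 1 or 8 h replicate 2) cholesterol genes rose. In the fit to 6 libraries 7 fell and 1 rose. Mvk measured 14.6, 22.4 and 33.0 CPM at 0 h and 58.9, 51.5 and 69.7 CPM at 8 h. In the methionine and one-carbon list 3 of 19 fell, Mat2a and also Gldc (−1.45), of glycine cleavage, and Mtap (−0.68), of methionine salvage, and Srm (0.51), which makes spermidine, rose. The Srm call was lost in the fit to 6 libraries and without 0 h replicate 2, 0 h replicate 3, 8 h replicate 1 or 8 h replicate 2.

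Pluripotency factors moved in both directions. Of 21 naive factors 3 fell and 2 rose, beside 4.97% and 4.21% of all tested genes (median 0.10), and with 1 library left out 1 to 4 (1 without 8 h replicate 1) rose. Tcl1, a coactivator of AKT, measured 179, 146 and 149 CPM at 0 h and 83.8, 77.5 and 84.6 CPM at 8 h (log2 fold change −0.94, SE 0.17, edgeR adjusted p = 0.000827). Tbx3, a T-box factor of the naive network, measured 138, 136 and 113 CPM at 0 h and 228, 220.1 and 244 CPM at 8 h (log2 fold change 0.84, SE 0.15, edgeR adjusted p = 0.00065). The groups were separate for both. Dppa3 fell (−1.84, 36.4% multimapping reads). Of 12 formative and primed genes 3 fell and 0 rose, among them Pou3f1 (−1.57) and Fgf15, which had 8.49, 15.7 and 2.96 CPM at 0 h and 0, 1.7 and 0.905 CPM at 8 h (median −0.44). None of the 3 was called in the fit to 6 libraries, and leaving out 1 library gave 0 to 2 (0 without 8 h replicate 2). Epithelial genes were gathered as a list after their decrease had been seen, and their count is a description. Of 18 tested, 7 fell and 0 rose (median −1.27). Cdh1, E-cadherin, measured 1211, 1025 and 1170.4 CPM at 0 h and 629.7, 654 and 518 CPM at 8 h (log2 fold change −0.92, SE 0.12, edgeR adjusted p = 4.31e-05). Sfn, the epithelial 14-3-3 protein, measured 254, 186 and 271 CPM at 0 h and 51.0, 90.5 and 38.0 CPM at 8 h (log2 fold change −1.99, SE 0.24, edgeR adjusted p = 1.01e-05). Mpzl2, an epithelial adhesion molecule, fell by 1.48 on the log2 scale. Of 6 trophectoderm and simple epithelial markers Eomes alone was called, with a decrease to 1.13, 5.66 and 5.88 CPM from 16.0, 11 and 21.5 CPM, a call that was lost in the fit to 6 libraries and without 0 h replicate 3 or 8 h replicate 1. The part of trophectoderm and simple epithelial cells in the decrease of the epithelial genes was not tested.

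Of 39 SR, hnRNP and SF3 genes 5 fell and 1 rose, beside 4.97% and 4.21% of all tested genes (median −0.10). Srsf7, an SR protein that binds exonic RNA, measured 654, 644 and 703 CPM at 0 h and 241, 226 and 244 CPM at 8 h. The 8 h libraries were all near one level, far below 0 h (log2 fold change −1.49, SE 0.12, edgeR adjusted p = 8.13e-09). Srsf3 measured 1092, 1095 and 1111 CPM at 0 h and 642, 636 and 746 CPM at 8 h (log2 fold change −0.70, SE 0.11, edgeR adjusted p = 0.00014). Srsf5 fell by 1.10 on the log2 scale, with 35.3% multimapping reads, and Sf3b3, a subunit of the U2 particle, rose (0.58), a call lost in the fit to 6 libraries and without any of 0 h replicates 2 and 3 and 8 h replicates 1 and 2. Leaving out 1 library gave 3 to 7 genes, fewest without 0 h replicate 2, 0 h replicate 3, 8 h replicate 1 or 8 h replicate 2. Of 104 ribosome biogenesis factors 9 fell and 0 rose (8.65%, median −0.10), including Rrp1b (−0.73), Nifk (−0.75), Nop58 (−0.48) and Rrp15 (−0.87), and the fit to 6 libraries called 2. With 1 library left out the count was 5 to 10 genes, fewest without 8 h replicate 1. Of 51 initiation factors 4 fell and 0 rose, among them Eif1 (−0.61, 37.3% multimapping reads), and with 1 library left out 1 to 5 (1 without 0 h replicate 3 or 8 h replicate 1) fell. The fit to 6 libraries called 1. Kars (−0.36) fell among 18 aminoacyl-tRNA synthetase genes and no other passed. Its call was lost in the fit to 6 libraries, with the replicate block, without T>C reads, without TMM or with upper-quartile factors and with any library but 8 h replicate 2 left out.

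Of 79 cytosolic ribosomal protein genes 1 fell and 3 rose, beside 4.97% and 4.21% of all tested genes (median 0.13). Rpl22l1, a paralogue of a ribosomal protein, measured 608, 718 and 720.5 CPM at 0 h and 366, 317 and 345 CPM at 8 h (log2 fold change −0.99, SE 0.12, edgeR adjusted p = 6.31e-06), with 52.2% multimapping reads. Of 73 mitochondrial ribosomal protein genes 2 fell and 4 rose (median −0.01), of 75 respiratory chain genes 1 fell and 5 rose (median 0.11), and of 35 proteasome genes 0 fell and 2 rose (median 0.17). With 1 library left out, 1 to 10 (1 without 0 h replicate 2 or 0 h replicate 3) cytosolic and 1 to 5 (1 without 0 h replicate 2, 0 h replicate 3 or 8 h replicate 1) mitochondrial ribosomal protein genes rose. Respiratory chain genes that rose then numbered 0 to 11 (0 without 0 h replicate 3, 8 h replicate 1 or 8 h replicate 2), with the highest count without 8 h replicate 3, and proteasome genes 0 to 6 (0 without 0 h replicate 2). Genes that fell numbered 1 to 4 (1 without 0 h replicate 2) for the mitochondrial ribosome (4 without 0 h replicate 1 or 8 h replicate 3), 0 to 3 for the respiratory chain (0 without 8 h replicate 1, 3 without 8 h replicate 3), 1 to 3 for the cytosolic ribosome (3 without 8 h replicate 2) and 0 to 2 for the proteasome (2 without 8 h replicate 3). In the fit to 6 libraries 0 genes of these 4 lists rose. Of 38 DNA replication genes 6 fell (15.8%) and 1 rose (median −0.10). Ccne1, cyclin E1, measured 448, 507 and 462 CPM at 0 h and 246, 180.5 and 222 CPM at 8 h (log2 fold change −1.13, SE 0.13, edgeR adjusted p = 6.24e-06). Mcm10 (−0.81) and Cdc6 (−0.82), which act at replication origins, and Pcna (−0.65, 55.3% multimapping reads) fell too. The gene that rose, Rfc4, named after its values were seen, was not called in the fit to 6 libraries or with any 1 library left out. Those that fell numbered, when 1 library was left out, 4 to 8 genes, fewest without 0 h replicate 2, 0 h replicate 3 or 8 h replicate 1. Of 38 mitosis genes Kif23, a kinesin of cytokinesis, fell (−1.05) and Cenpf rose (0.69, 22.9% multimapping reads), and the median was −0.01. Without 0 h replicate 1 there were 4 mitosis genes that fell, and without 8 h replicate 3 there were 5, with 2 that rose.

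p53 targets were called upwards alone, with 5 of 22 (22.7% against 4.21% of all tested genes, 9 members lower and 13 higher, median 0.32). The count was 4 to 5 when 1 library was left out and 3 in the fit to 6 libraries. Bbc3, which encodes the apoptosis activator PUMA, measured 68.4, 50.2 and 53 CPM at 0 h and 111, 116 and 120.0 CPM at 8 h (log2 fold change 1.02, SE 0.18, edgeR adjusted p = 0.000875). Trp53inp1, a p53-induced nuclear protein, measured from 139 ± 6.58 to 255 ± 42.5 CPM (SD, n = 3; log2 fold change 0.87, SE 0.15, edgeR adjusted p = 0.000611). No 8 h library of either gene fell within its 0 h range. Zmat3 (0.81) and Rps27l (0.52) rose too. Of 28 glycolysis and hypoxia genes 4 rose and 0 fell (median 0.22), with 1 to 5 genes, fewest without 8 h replicate 1, when 1 library was left out and 1 in the fit to 6 libraries. Ndrg1, a hypoxia-induced gene, measured 0.943, 8.19 and 1.11 CPM at 0 h and 18.7, 23.2 and 17.7 CPM at 8 h (log2 fold change 2.46, SE 0.54, edgeR adjusted p = 0.00537), and Bnip3 (0.90, 23.6% multimapping reads), Pfkl (0.60) and Slc2a1 (0.59) rose as well, with overlapping groups for Slc2a1. Of 23 integrated stress response genes 2 fell and 1 rose, with 1 to 4 and 1 to 3 when 1 library was left out (3 and 3 without 0 h replicate 1, 4 and 3 without 8 h replicate 3, 1 and 1 without 8 h replicate 1 or 8 h replicate 2). Without T>C reads 4 rose. Ddit4, an inhibitor of mTORC1, measured 47.6, 53.4 and 68.6 CPM at 0 h and 135, 177 and 155 CPM at 8 h (log2 fold change 1.46, SE 0.19, edgeR adjusted p = 2.33e-05). Cth, of cysteine synthesis, fell (−1.73). Nupr1 fell from 9.90, 4.27 and 4.45 CPM to 0, 0 and 0.453 CPM. The Cth call was lost in the fit to 6 libraries, and that of Nupr1 without 8 h replicate 1 or 8 h replicate 2. Among 26 chaperone genes Hspa5, the ER chaperone BiP, fell (−0.76) and 0 rose. Without 0 h replicate 1 or 0 h replicate 2 there were 2 such genes that fell, and without 8 h replicate 3 there were 4, with 1 that rose.

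Of 21 tested subunits of the H3K4 methyltransferase complexes 0 fell and 3 rose, beside 4.21% of all tested genes (median 0.05). With 1 library left out 1 to 3 (1 without 0 h replicate 1, 0 h replicate 2 or 8 h replicate 1) rose, and 0 did in the fit to 6 libraries. Cxxc1, which targets SET1 complexes to CpG islands, measured 47.6, 50.9 and 48.5 CPM at 0 h and 75.9, 94.5 and 87.4 CPM at 8 h (log2 fold change 0.81, SE 0.20, edgeR adjusted p = 0.0135). Men1 (0.70), encoding menin, and the methyltransferase gene Kmt2b (0.93) rose too, and the Kmt2b groups overlapped. Of 7 H3K4 demethylases and partners 0 passed. Of 25 Polycomb subunits Suz12 (−0.44, 34.3% multimapping reads), Ezh2 (−0.42) and Rnf2 (−0.48) fell, and Epop (0.58), which limits Polycomb activity, rose, beside 4.97% and 4.21% of all tested genes (median −0.02). Polycomb genes that fell numbered 0 to 3 (0 without 8 h replicate 1) with 1 library left out, and 0 did in the fit to 6 libraries. The Epop call was lost in that fit and without 0 h replicate 3. The methylation adaptor gene Uhrf1 fell (−0.52, 38.8% multimapping reads), and Tet1 (0.68) and Tet2 (0.59), encoding 5-methylcytosine oxidases, rose, of 9 tested, and the Tet2 groups overlapped. The Uhrf1 and Tet2 calls were lost in the fit to 6 libraries and without 0 h replicate 2, 0 h replicate 3 or 8 h replicate 1, and that of Tet2 also without 8 h replicate 3, without T>C reads and with the replicate block. Of 40 genes of pausing, elongation and Integrator 2 fell and 2 rose (median 0.03). Hexim1, which inhibits P-TEFb, measured 115, 148 and 176 CPM at 0 h and 93.4, 73.5 and 100.0 CPM at 8 h (log2 fold change −0.72, SE 0.17, edgeR adjusted p = 0.0113), and Ccnt1 (−0.39), a P-TEFb cyclin, fell, whereas Ccnt2 (0.61) and Nelfcd (0.93) rose. In the fit to 6 libraries 0 of these genes fell and 0 rose. Of 10 Myc and Max network genes Mga fell (−0.55) and Mxd4 rose. The Mga call was lost in the fit to 6 libraries, without T>C reads and without 0 h replicate 2, 8 h replicate 1 or 8 h replicate 3. Of 272 numbered Zfp genes 11 fell and 8 rose (4.04% and 2.94%), and 6 and 1 did in the fit to 6 libraries. No gene was called among 8 histone genes, 6 germline genes and the 1 Hox gene that were tested.

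Calls of further named genes also depended on single libraries. Leaving out 0 h replicate 1 ended the calls of Ccnt1, Fgf15, Kmt2b, Map2, Men1 and Slc2a1. For 0 h replicate 2 this held for Actg1, Ccnt1, Ccnt2, Ezh2, Fgf15, Id3, Ing1, Kmt2b, Lifr, Map2, Men1, Nelfcd, Pfkl, Psmd2, Rnf2 and Trim28, and for 0 h replicate 3 for Actg1, Bnip3, Ccnt1, Ccnt2, Dusp4, Hexim1, Id3, Ing1, Lifr, Map2, Nelfcd, Pfkl, Pou3f1, Rnf2, Suz12, Tagln2 and Trim28. Leaving out 8 h replicate 1 ended those of Actg1, Bnip3, Ccnt1, Ccnt2, Ezh2, Fgf15, Id3, Ing1, Kmt2b, Lifr, Map2, Men1, Pfkl, Pou3f1, Rnf2, Slc2a1, Suz12, Tagln2, Tpm1 and Trim28. For 8 h replicate 2 they were Actg1, Ccnt1, Ccnt2, Cxxc1, Dusp4, Fgf15, Id3, Ing1, Lifr, Map2, Nelfcd, Pfkl, Pou3f1, Rnf2 and Trim28, and for 8 h replicate 3 Ccnt1, Ccnt2, Dusp4, Fgf15, Kmt2b, Map2, Pou3f1, Rnf2, Slc2a1 and Suz12. The fit to 6 libraries lost each of these except Bnip3, and also Arl6ip1, Dusp5, Igf2bp1, Ndrg1, Nop58, Pim1, Rps27l and Rrp15. List counts moved too when 1 library was left out. From 0 to 2 genes of pausing and elongation fell (0 without 0 h replicate 3) and 0 to 2 rose (0 without 0 h replicate 2, 0 h replicate 3 or 8 h replicate 2), and numbered Zfp genes gave 6 to 12 (6 without 0 h replicate 2, 0 h replicate 3, 8 h replicate 1 or 8 h replicate 2) lower and 2 to 6 (2 without 0 h replicate 3 or 8 h replicate 1) higher. Where a list had 0 calls in a direction, at most 2 appeared there, with 2 for histone and ribosome biogenesis genes (higher) and proteasome genes (lower) without 8 h replicate 3 and for initiation factors (higher) without 0 h replicate 1. Without TMM factors 3 splicing factors, 3 actin, SRF and YAP targets and 7 Zfp genes fell, and 5 cytosolic ribosomal protein, 8 respiratory chain and 4 proteasome genes rose. Without multimapping reads 3 actin, SRF and YAP targets and 2 initiation factors fell, and 1 cytosolic ribosomal protein gene and 2 respiratory chain genes rose. Without T>C reads 1 LIF target fell, and 2 respiratory chain and 5 Zfp genes rose.

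**Figure D3:**
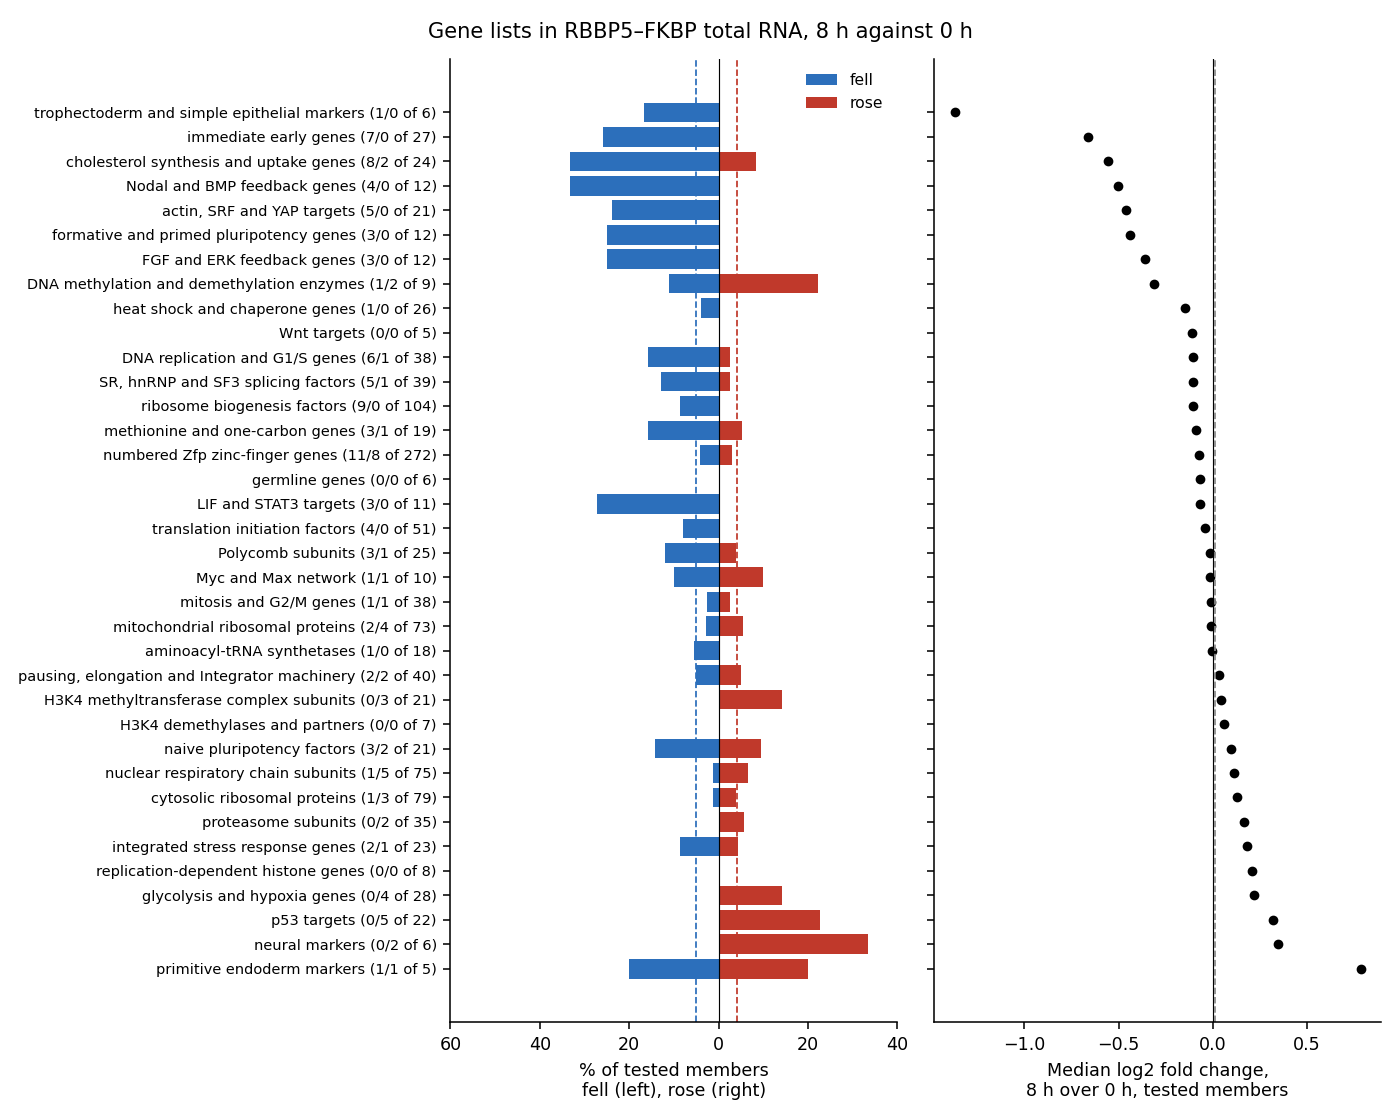
For 36 gene lists with at least 5 tested members, the left panel shows the percentage of tested members that fell (blue, to the left) or rose (red, to the right), with dashed lines at 4.97% and 4.21%, the shares of all tested genes. The right panel shows the median log2 fold change of the tested members, with the median of all genes as a dashed line. Numbers in brackets give fell/rose of tested, and immediate early, cholesterol and Nodal feedback genes combine many decreases with low medians.

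The later time points were all set against the same 0 h libraries, so their values are given side by side. At 2 h, 0 genes were lower and 0 higher (0% of 9676 each, edgeR), against 412 and 395 at an unadjusted p under 0.05 and 15 and 3 with DESeq2. At 24 h, 420 genes were lower than at 0 h (4.34%) and 290 higher (3%). The genes that fell at 8 h had a median log2 fold change of −0.16 (2 h), −0.89 (8 h) and −0.68 (24 h). The genes that rose had 0.28, 1.06 and 0.79. Both sets were chosen by their change at 8 h, so their 8 h medians do not compare on equal terms with those of 2 h and 24 h. Srsf7 showed no decrease at 2 h, with 737, 685 and 731 CPM, and had 306, 318 and 288 CPM at 24 h. Mat2a measured 2099.6, 2096 and 2164 CPM at 2 h and 792, 891 and 832 CPM at 24 h, below its 8 h mean. The cholesterol list had medians of 0.30 (2 h), −0.56 (8 h) and −0.97 (24 h).

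Between 8 h and 24 h few genes differed, with 7 lower and 7 higher at 24 h (0.0723% each). They are all named here, after their values were seen. Lower at 24 h were Sparc, Vim, Calcoco2, Mfge8, Ccnd2, Mvk and Zfp936. Vim, the intermediate filament vimentin, measured 76.8, 145 and 127 CPM at 0 h and 294, 275 and 349.9 CPM at 8 h, and then 124, 174 and 165 CPM at 24 h. It rose between 0 h and 8 h (log2 fold change 1.39, SE 0.19, edgeR adjusted p = 5.57e-05) and was lower at 24 h than at 8 h (log2 fold change −0.99, edgeR adjusted p = 0.0419). Sparc, a matrix glycoprotein, had 457, 398 and 467 CPM at 0 h, 516, 533 and 379.8 at 8 h, then 199, 199 and 172 at 24 h, and its 8 h and 0 h values overlapped (24 h against 8 h, edgeR adjusted p = 9.98e-06). Mvk measured 28.0, 22.0 and 16.8 CPM at 24 h. Higher at 24 h were Phlda2, Id1, Pim1, Rhox5, Cetn3, Pabpc1 and Lrrc17, and all reads of Lrrc17 were multimapping. Phlda2 measured 262, 325 and 273 CPM at 24 h, still far below 0 h. Id1 measured 142, 129.9 and 138 CPM, just under its 0 h values, and Cetn3, a centrin of centrosomes, went from 35.4, 50.6 and 53.4 to 14.7, 12.4 and 24.4 and then 51.2, 44.1 and 42.3 CPM. Without 8 h replicate 3 these counts were 53 and 116, and without 8 h replicate 1 they were 2 and 1.

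**Figure D4:**
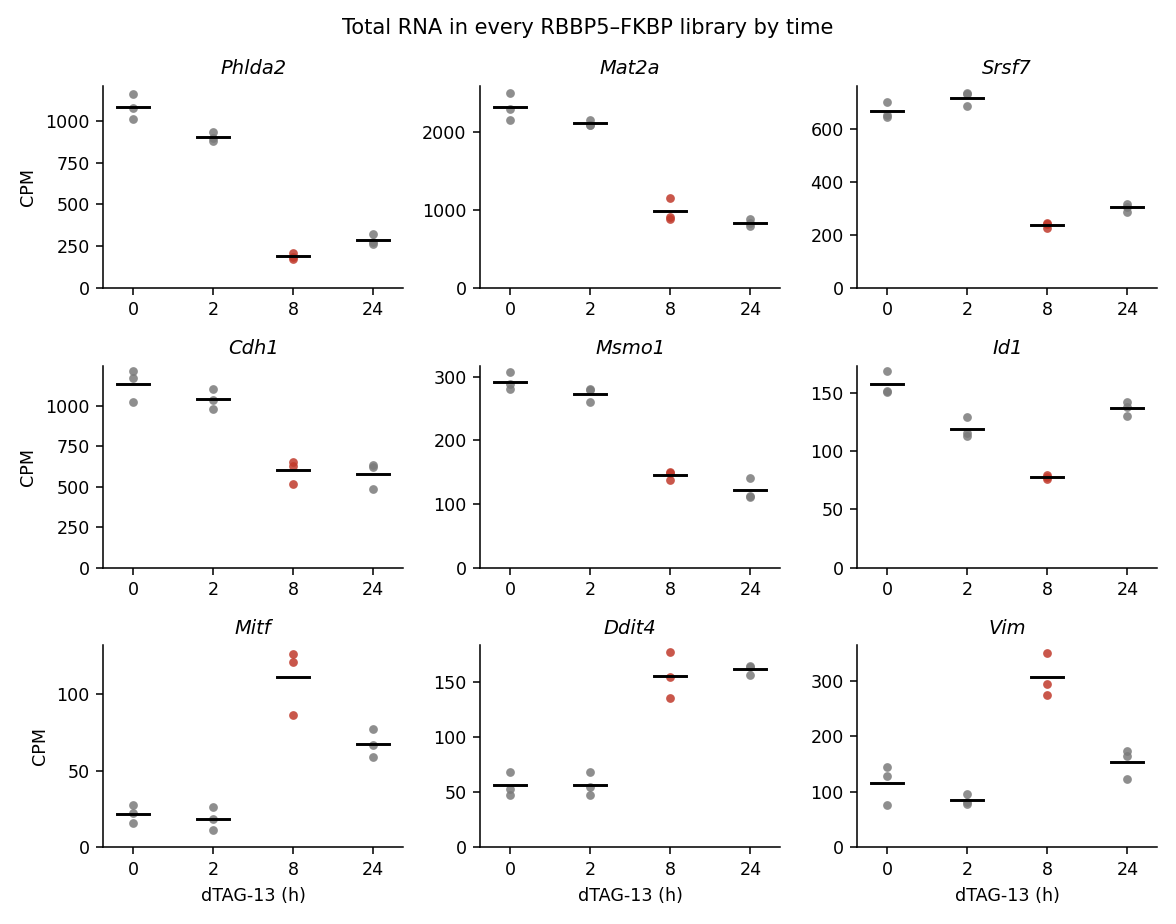
CPM of 9 genes in each RBBP5–FKBP library at 0, 2, 8 and 24 h of dTAG-13 (x axis, not to scale in time), with each library as a point, the 8 h libraries in red and group means as bars. The 2 h means of Mat2a, Srsf7 and Msmo1 lie close to 0 h and the 8 h means do not, whereas the mean of Vim is highest at 8 h.

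The same libraries also hold T>C reads, which come mainly from RNA made during the 4SU pulse. They were 9.10% to 10.1% of reads at 0 h and 6.47% to 7.25% at 8 h. Scaled to all reads, 361 of 4761 genes tested were lower in T>C reads at 8 h (7.58%) and 6 higher (0.126%, edgeR), and the median log2 fold change over these genes was −0.49. Of the 390 genes that fell in total RNA and could be tested, 162 were lower in T>C reads and 0 higher, with a median of −1.19. Of the 205 that rose in total RNA, 6 were higher and 0 lower, with a median of 0.40, and 199 of the 4166 genes not called in total RNA were lower. T>C reads are part of the total, and without them 394 genes fell and 321 rose. Mat2a changed by −1.89 in T>C reads and −1.24 in total reads, Phlda2 by −3.00 and −2.52, and Mitf by 2.21 and 2.33. Trim28, which rose in total reads (0.36), had −0.34 in T>C reads (edgeR adjusted p = 0.294).

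Genes were also ordered by how strongly their RNA was labelled, using the T>C conversions per T in the 0 h libraries of DPY30–mAID cells, which take no part in the comparison. A rate from at least 30 reads was had for 8835 of the tested genes and was missing for 841. In 5 groups from the least labelled (median rate 0.404%) to the most labelled (2.18%), the median log2 fold change of total RNA was 0.05, 0.01, 0.04, −0.03 and −0.06. Both outer medians were smaller than the SD of the 3 library medians of their group (0.09 in each). The share that fell was 4.24% in the least and 5.49% in the most labelled group, and the share that rose was 3.74% and 3.62%. The median rate was 1.21% for genes that fell, 1.25% for genes that rose and 1.22% for all with a rate.

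The genes named for the largest changes and the highest levels were searched for TATTTAT, the core of AU-rich elements found in short-lived mRNAs. The search covered the sense strand of the longest annotated 3′ UTR of each gene (GENCODE vM21, GRCm38). It was found in 8 of the 15 named genes that fell and 2 of the 15 that rose. Sites of 3 genes that fell and 1 that rose are shown, with the motif in capitals between 9 bases on either side, in the direction of the mRNA.
Phlda2: attggaccgTATTTATattggttac
Mat2a: cttgagctcTATTTATtgaatgtga
Jade1: ccaatcctgTATTTATttctacccc
Mitf: ttctcttcaTATTTATgtggggggg
These lie at chr7:143501632-143501656 on the minus strand (Phlda2), chr6:72433823-72433847 on the minus strand (Mat2a), chr3:41616716-41616740 on the plus strand (Jade1) and chr6:98020369-98020393 on the plus strand (Mitf). Over all genes with such a UTR the motif was in 35.2% of those that fell (169 of 480), 26.7% of those that rose (108 of 405) and 31.6% of those tested (3046 of 9650). UTR length also differed, with medians of 1474, 1367 and 1248 bases. Above the median length of all tested genes the shares were 48.9%, 41.7% and 47.8%, and at or below it 17.3%, 9.52% and 15.3%. A match describes the letters only, and its part in the changes was not tested.

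DPY30–mAID cells at 8 h of auxin have their own 0 h libraries, and there 773 of 9848 genes were lower (7.85%) and 524 higher (5.32%, edgeR). Without TMM factors that split was 508 lower and 781 higher, with the median of all genes moving from 0.01 to 0.12. Of 9328 genes tested in both lines, 174 fell in both, which is 37.1% of the 469 that fell after RBBP5 loss and 22.9% of the 759 after DPY30 loss. In comparison, 8.14% of all 9328 fell after DPY30 loss. There were 105 genes that rose in both, or 26.7% of 393 and 20.6% of 509, against 5.46% of all. Opposite calls were made for 5 genes that fell and 9 that rose after RBBP5 loss. Across genes, which are not independent replicates, the log2 fold changes of the lines had a Pearson correlation of 0.365 and a Spearman correlation of 0.357 (n = 9328 genes). The median change in DPY30–mAID cells was −0.38 for the genes that fell after RBBP5 loss and 0.34 for those that rose.

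A fit of both lines tested the difference of the 8 h effects itself, and 90 of 10196 genes had a lower change in RBBP5–FKBP cells (0.883%) and 111 a higher one (1.09%). Without TMM factors the split was 121 and 97. Phlda2 changed by −2.52 in RBBP5–FKBP and −0.75 in DPY30–mAID cells (difference −1.77, SE 0.19, edgeR adjusted p = 5.7e-08). Ccne1 changed by −1.13 in RBBP5–FKBP and 0.02 in DPY30–mAID cells (difference −1.14, SE 0.17, edgeR adjusted p = 6.89e-05), and Hspa5 by −0.76 in RBBP5–FKBP and 0.38 in DPY30–mAID cells (difference −1.14, SE 0.18, edgeR adjusted p = 0.000102). Phlda2 fell in both lines and further after RBBP5 loss, and Hspa5 fell in one line and rose in the other. The reverse held for Srsf7, with −1.49 in RBBP5–FKBP and −2.56 in DPY30–mAID cells (difference 1.06, SE 0.16, edgeR adjusted p = 5.69e-05), and Mat2a, with −1.24 in RBBP5–FKBP and −1.87 in DPY30–mAID cells (difference 0.63, SE 0.14, edgeR adjusted p = 0.00674), which fell further after DPY30 loss. Islr2 changed by 3.57 in RBBP5–FKBP and −0.20 in DPY30–mAID cells (difference 3.80, SE 0.64, edgeR adjusted p = 0.000368). Esrrb rose in one line and fell in the other, by 0.50 in RBBP5–FKBP and −0.41 in DPY30–mAID cells (difference 0.90, SE 0.16, edgeR adjusted p = 0.000587). For Plaur, Jade1 and Mitf no difference was called. Their differences were −1.54 (SE 0.45), 0.08 (SE 0.13) and 0.51 (SE 0.40). The lines also differ in degron and ligand, and line and subunit cannot be told apart. The 8 h libraries of DPY30–mAID cells held 5.51%, 9.82% and 13% T>C reads, a wider spread than in RBBP5–FKBP cells.

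**Figure D5:**
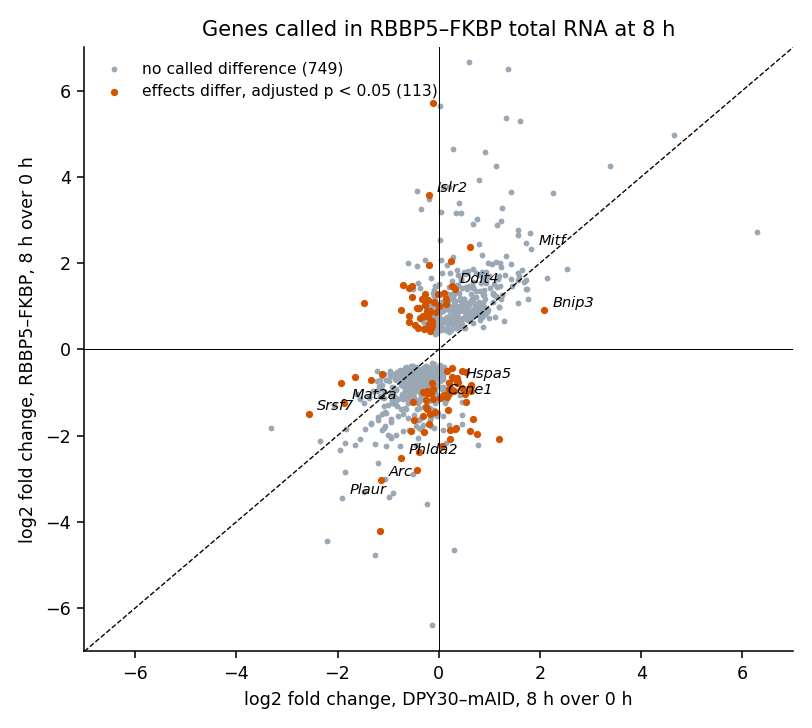
Log2 fold change at 8 h in DPY30–mAID cells (x axis) and RBBP5–FKBP cells (y axis) of 862 genes called in RBBP5–FKBP total RNA with a value in both lines. Orange points are the 113 genes whose effects differ by the test of the difference, and the dashed line marks equal effects. Phlda2, Arc and Islr2 lie further from 0 in RBBP5–FKBP cells, Srsf7 and Bnip3 in DPY30–mAID cells.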

How the data were processed

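Total RNA of 3 RBBP5–FKBP libraries at 8 h was compared with 3 at 0 h. The deposited read counts, made by the authors per 3′ UTR interval with SlamDunk 0.3.4 (per the file headers) on GRCm38, were used as raw counts, including reads mapping to more than 1 place. The submitters' processing notes also name HISAT2 2.2.1, featureCounts, cutadapt, Trim Galore and bcl2fastq without a role. The study's methods give cutadapt and Trim Galore for adapter trimming. They name HISAT and featureCounts for mapping and counting Quant-seq reads. The 46420 intervals were summed to 20177 genes. Reads of these QuantSeq 3′ libraries were counted without molecular identifiers, so they are not independent molecules. ERCC spike-ins were not in the files used. The study describes the 3 libraries of each group as biological replicates.

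Genes reaching a mean of 10 reads at any time point were fitted with edgeR 4.0.16 (R 4.3.3; TMM, quasi-likelihood, Benjamini-Hochberg adjustment, threshold 0.05) over all 12 RBBP5–FKBP libraries. DESeq2 1.42.0 served as an alternative. T>C reads used the library sizes of all reads. The difference of the lines came from a fit of both. Counts were also simulated with the same spread for every gene and 200 genes changed by a log2 fold change of 2. Of these, 93.5% were recovered for the 8 h comparison (9307 genes), and 74.5% for the difference (9603 genes). False calls numbered 12 and 8. The genes called at 8 h had smaller median changes (−0.89 and 1.06), so these shares do not give the recovery of such changes. Total counts were 1736015 to 2852331 reads in the 6 libraries of 0 h and 8 h, and the 2 h and 24 h libraries had 1721185 to 2548140. Members and lists were chosen with earlier results of these data known. Named genes were the 10 with the largest change and the 5 of highest 0 h level in each direction (adjusted p under 0.05, groups apart, at least 50 reads in the higher group, under 20% of reads mapping to more than 1 place), up to 4 members of each list with the smallest adjusted p, and Rbbp5. Mvk, Mvd, Esrrb as an ES marker, the 14 genes differing between 24 h and 8 h, and the list of keratins and epithelial adhesion genes were chosen after their values were seen. Results of some genes are not reported here. Lists are described by counts and medians, with no set test. Alternatives left out 1 library at a time (8 h libraries alone for 24 h against 8 h, DPY30–mAID and the difference), changed the scaling, filter or tool, dropped T>C or multimapping reads, thinned to equal depth, or added the replicate number as a block. Figures were drawn with matplotlib 3.10.9. The guide came from the study's table of designed sequences, and target sites and 3′ UTRs from GENCODE vM21 transcripts (GRCm38).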

Additional observations from a re-analysis of the deposited data

Results flagged for a closer look

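The 8 h effect in total RNA differed between RBBP5–FKBP and DPY30–mAID cells for 35 of 136 named genes, beside 0.883% (lower) and 1.09% (higher) of all 10196 genes, by a fit of both lines that tested the difference itself (quasi-likelihood test of edgeR, Benjamini-Hochberg adjusted over 10196 genes). Each value is the log2 fold change in RBBP5–FKBP cells minus that in DPY30–mAID cells. It was negative for 19 genes, namely Ap1m2 (−2.37), Lpl (−2.30), Dppa3 (−2.16), Cldn6 (−1.99), Arc (−1.87), Phlda2 (−1.77), Lefty2 (−1.77), Gldc (−1.37), Jund (−1.34), Skil (−1.22), Bnip3 (−1.19), Kif23 (−1.16), Ccne1 (−1.14), Hspa5 (−1.14), Rhox5 (−1.05), Msmo1 (−0.86), Id1 (−0.78), Ezh2 (−0.68) and Rpl22l1 (−0.68). It was positive for 16 genes, namely Rps19 (0.60), Mat2a (0.63), Srsf3 (0.64), Arl6ip1 (0.76), Epop (0.77), Esrrb (0.90), Ncam1 (0.94), Tbx3 (1.03), Srsf7 (1.06), Vim (1.07), Trp53inp1 (1.08), Ddit4 (1.19), Lama1 (1.46), Taok3 (1.74), Foxp4 (1.79) and Islr2 (3.80). Among the differences of small relative error were −1.77 for Phlda2 (SE 0.19, edgeR adjusted p = 5.7e-08), −1.14 for Ccne1 (SE 0.17, edgeR adjusted p = 6.89e-05) and 1.06 for Srsf7 (SE 0.16, edgeR adjusted p = 5.69e-05). All 136 genes had been called at 8 h in RBBP5–FKBP cells, a change that enters the difference. The shares of all genes are therefore no like reference. Of the 862 genes called in RBBP5–FKBP cells with a value in both lines, effects differed for 113. The lines also differ in degron and ligand, and the part of the spread of T>C shares among the 8 h DPY30–mAID libraries (5.51% to 13%) in these differences was not tested.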

How the results depend on the processing

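The genes called at 8 h, 481 lower and 407 higher, stayed within 1.5 times these counts with DESeq2 (622 and 512), without TMM factors (386 and 476), with upper-quartile factors (402 and 479), with no filter or one at a mean of 50 reads, without reads mapping to more than 1 place, without T>C reads and at equal depth. They were 189 and 118 in the fit to the 0 h and 8 h libraries alone, and 1157 and 1189 at an unadjusted p under 0.05. Those with a log2 fold change beyond 1 were 116 and 96, and 382 and 502, in the same order. Leaving out 1 library gave 243 (8 h replicate 1) to 548 lower and 178 (8 h replicate 1) to 440 higher genes, and 122 to 248 higher genes beyond 1. Without 0 h replicate 2 they were 297 and 221, without 0 h replicate 3 275 and 213, and without 8 h replicate 2 374 and 230. At 2 h DESeq2 called 15 lower and 3 higher, and 412 and 395 passed unadjusted. Between 24 h and 8 h, 7 and 7 became 45 and 33 with DESeq2, 523 and 551 unadjusted, 8 and 4 without TMM factors, and with 1 of the 8 h libraries left out 2 to 53 lower and 1 to 116 higher (24 h and 0 h libraries were not left out). In DPY30–mAID cells 508 were lower without TMM factors, and 307 to 398 were higher with 1 of the 8 h libraries left out. The difference of the lines gave 706 and 804 unadjusted, and 55 to 134 lower with 1 of the 8 h libraries of either line left out. The causes were not tested. No named gene reversed. With only the 0 h and 8 h libraries 57 of 130 list and named genes lost their call.

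Same-numbered 0 h and 8 h libraries did not deviate together (correlations −0.03, −0.18 and 0.14), and 0 of 3 8 h libraries were closest to their own number. No pairing by number was thus seen, but so few libraries cannot show that the samples were unpaired. With the replicate number as a block 420 genes fell and 331 rose, and 4 and 1 differed between 24 h and 8 h. Genes under a mean of 10 reads at all 4 time points were not tested, and with no filter on low counts 562 genes were lower and 435 higher.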

Other observations

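More genes were detected at 8 h than at 0 h at equal depth. With every library thinned to 1721185 reads, 10969, 10867 and 10801 genes had at least 1 read at 0 h, and 11378, 11346 and 11533 at 8 h, so the groups did not overlap. Without thinning the counts were 11072, 11053 and 10974, and 11378, 11371 and 11652. The thinned 2 h libraries held 11038, 11141 and 10908 genes and the 24 h libraries 10982, 11164 and 11448. In DPY30–mAID cells the thinned counts overlapped, with 11182, 11115 and 11606 at 0 h and 11505, 11588 and 11126 at 8 h.

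Genes with 0 reads in all 3 RBBP5–FKBP libraries of 0 h and at least 1 read in every later library numbered 35 at 2 h, 98 at 8 h and 77 at 24 h. At 8 h they had a median of 11 reads over the 3 libraries. The reverse, present at 0 h and at 0 later, held for 26, 42 and 29 genes. In DPY30–mAID cells the first count was 25, 45 and 62 and the second 26, 35 and 47. These are genes of few reads, and counting error alone can move a gene across 0.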
